A study of Mus musculus with 48 samples.

Results

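Cells captured from the mouse medial prefrontal cortex on magnetic beads against CD11b were compared with whole homogenate of the same cortex, in mice that had only water to drink. The comparison used the 16 libraries of the 8 water mice that had both preparations, out of 47 libraries with counts in the study, and it was read across all 14894 genes with enough counts. The pairs were set by the mouse number in the sample titles (15, 16, 17, 18, 19, 21, 24 and 25). All of these mice were C57BL/6, an inbred laboratory strain, and drank water for 60 days with no ethanol. Age and sex are not given in the labels. A small portion of each minced cortex was kept as homogenate without dissociation. The rest was dissociated, freed of myelin on Percoll and passed over the CD11b beads. Poly(A) RNA of both was sequenced, and the values are read counts per gene. The other groups of the study drank ethanol or received bacterial lipopolysaccharide or saline, and of these only the 10 ethanol mice with both preparations are used here, to repeat the comparison.

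Microglia are the resident macrophages of the brain. They descend from yolk sac precursors, depend on signalling through the receptor Csf1r, and are held in a resting program by factors such as Spi1 and Sall1 and by cues such as TGF-beta. CD11b is the integrin chain encoded by Itgam, and besides microglia it is carried by macrophages of the brain borders, monocytes and neutrophils, so the beads take these cells too. Homogenate contains the RNA of neurons, astrocytes, oligodendrocytes and vessels together with that of microglia. A higher count in the bound cells can reflect the enrichment of a cell type or a change during the isolation, and the design cannot tell these apart, since homogenate was never dissociated. In such bulk samples fewer cells of a type and less RNA per cell cannot be told apart either.

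The libraries held 27.3 ± 9.70 × 1e6 counts in genes (mean ± SD, n = 8; range 9.72 to 39.5) in bound cells and 51.6 ± 13.9 × 1e6 (n = 8; 24.5 to 67.5) in homogenate. Between 13217 and 14898 genes were detected in bound cells, against 16045 to 17595 in homogenate. The bound cells of mice 19 and 24 stood apart from the rest. In mouse 24, 56.1% of uniquely aligned reads fell outside genes, against 19.9% to 27.1% in the other 7, and the ribosomal RNA precursor Rn45s was at 102639 CPM (counts scaled to a library total of 1e6 in genes) against 785 to 6770. In mouse 19, the summed level of 12 neutrophil markers was 18376 CPM against 48.1 to 344 in the other 7. The homogenate of mouse 25 stood apart as well, with 12 fibroblast markers summing to 2474 CPM against 74.2 to 464 in the other 7 homogenates, and the prostaglandin synthase Ptgds at 6101 CPM against 108 to 1410. Without mouse 25, 5160 genes passed the 4-fold test described below, in place of 5339. The extraction text in the labels conflicts for 3 homogenates, those of mice 21, 24 and 25, which carry the text of the isolation although their cell type label is mixed homogenate. In these 3 homogenates the microglial receptor Csf1r was at 146 to 201 CPM, against 140 to 161 in the other 5 homogenates and 8088 or more in every bound library. The synaptic protein Snap25 was at 1837 to 2185 CPM in the 3 and 2050 to 2984 in the other 5, against at most 31.2 CPM in bound cells. Both genes therefore placed these 3 libraries with the homogenates. Fits within mice 15 to 19 and within mice 21, 24 and 25 gave 4601 and 3925 such genes. Those also past 4-fold in the full fit kept their sign, which the libraries shared by the fits nearly ensured.

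The preparations differed at most genes, and losses outnumbered gains. Of 14894 genes, 12351 (82.9%) differed at an adjusted p of 0.05, 5029 of them (33.8%) higher in bound cells and 7322 (49.2%) lower. The median over all genes was -0.44 on the log2 scale. Because so many genes differed, a gene is called gained or lost here only where its difference was significantly larger than 4-fold. By this test 5339 genes (35.8%) passed, 1570 gained (10.5%) and 3769 lost (25.3%), and each gene list below is to be read against these 2 shares and that median. The gained genes took 41.9% ± 2.88 (SD, n = 8) of the counts of bound cells and 2.91% ± 0.299 of those of homogenate. The lost genes took 2.03% ± 0.287 and 45.2% ± 0.958. Gains were steadier between mice than losses: the SD of the 8 within-mouse log2 ratios had a median of 0.477 over gained genes and 1.31 over lost genes, and lost genes rested on fewer counts in bound cells. The direction was the same in all 8 mice for 1549 of the 1570 gained and 3685 of the 3769 lost genes. In 190 lost genes no bound library held a single count, while every gained gene had counts in homogenate.

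**Figure D1:**
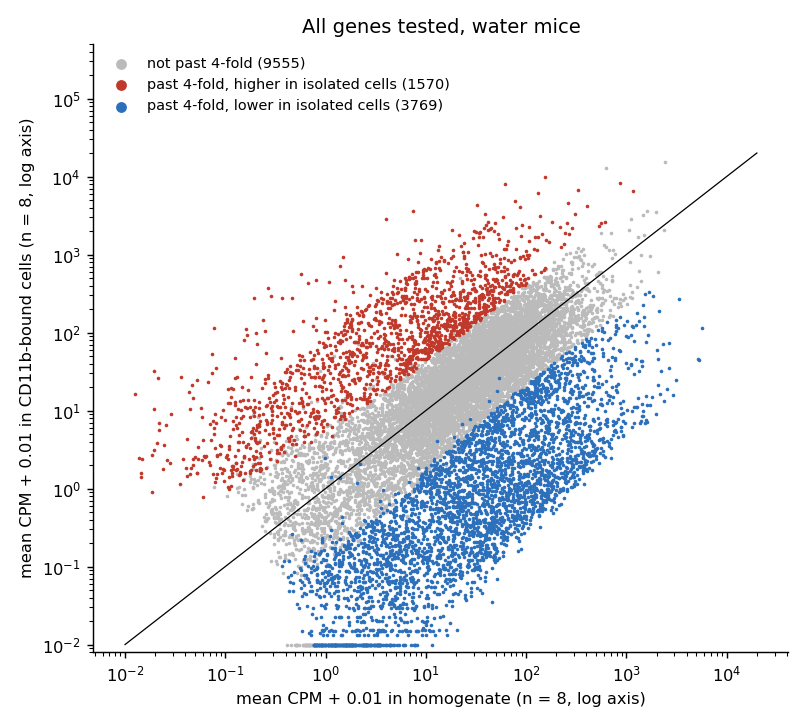
Mean CPM of each of the 14894 tested genes in homogenate (horizontal, log axis, n = 8) and in CD11b-bound cells (vertical, log axis, n = 8), with 0.01 added to both, 1 point per gene. The 1570 gained genes (red) lie above the line of equal level, and nearly all of the 3769 lost genes (blue) lie below it, down to the floor of the plot where bound cells had no counts.

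The genes that mark resting microglia were among the most abundant gained genes. Csf1r had a lowest, median and highest level of 8088, 10365 and 11161 CPM in the 8 bound libraries and of 140, 146 and 201 CPM in the 8 homogenates. The fractalkine receptor Cx3cr1 was at 3935, 4914 and 5428 CPM against 68.3, 76.5 and 91.3 CPM. For both receptors the lowest bound library lay far above the highest homogenate, a separation that was not counted over all genes. The surface protein Tmem119 was at 1556, 1960 and 2216 CPM against 26.3, 30.7 and 40.9 CPM. The purinergic receptor P2ry12, which senses nucleotides released by damaged cells, was at 1631, 2291 and 2408 CPM against 29.8, 37.98 and 47.2 CPM. These 4 markers gained 6.08 (SE 0.10), 6.05 (SE 0.09), 6.02 (SE 0.09) and 5.90 (SE 0.07) on the log2 scale in the order Csf1r, Cx3cr1, Tmem119 and P2ry12, and each was higher in 8 of 8 mice. All 25 genes of a list of resting microglia were gained, with a median log2 fold change of 5.81. Their range was narrow, from 3.98 for the phagocytic receptor Mertk and the matrix protein Sparc to 6.11 for the fructose carrier Slc2a5 and the selectin ligand Selplg, with the receptor Gpr84 above them at 8.01. By the geometric mean over this list, homogenate held 1.74% to 2.32% of the level of bound cells of the same mouse.

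Per transcript length, leading genes of the bound cells with like levels in all mice encoded a secreted protease inhibitor, cytoskeletal actin and a lysosomal protease. Cst3, the cystatin C inhibitor of cysteine proteases, was first at 30094 ± 3710 TPM (counts per exon length, scaled to the same total in each library; SD, n = 8), and other leading genes with like levels in all mice included Actb at 10350.4 ± 1166 and the protease cathepsin D (Ctsd) at 9696 ± 1088. Mir6236 and Lars2 ranked 2 and 3 by mean, at 13056 ± 30044 and 10610 ± 24167 TPM. Both were highest in mouse 24, Lars2 at 84524 CPM against 205 to 6381 CPM in the other 7. Homogenate also held Cst3 among its leading genes, at 3575 ± 345 TPM, and the gene was gained by 3.35 (SE 0.08) on the log2 scale. Its CPM were 6726, 8493 and 9488 (lowest, median, highest) in bound cells and 780, 845 and 1026 in homogenate. By mean Ptgds was first in homogenate, at 4944 ± 7477 TPM with a range of 418 to 22877. Other leading genes of homogenate were Snap25 at 3773 ± 743 TPM and the peptide-processing enzyme Cpe at 3727 ± 290. Only 6 genes were shared by the leading 40 of each preparation.

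Some gains and losses hardly varied between mice. Csk, the kinase that restrains Src family kinases, was at 215 to 314 CPM in bound cells and 27.2 to 36.5 CPM in homogenate, and its log2 ratio of 3.23 had an SD of 0.069 over the 8 mice. The retinal reductase Dhrs3 (log2 2.92, SD 0.094), the choline carrier-like protein Slc44a2 (2.37, SD 0.097) and the granulocyte colony-stimulating factor receptor Csf3r (6.66, SD 0.099) followed. Csf3r was at 650 to 858 CPM in every bound library, also in the 7 without high neutrophil markers, against 7.60 to 8.91 CPM in homogenate. The steadiest losses were of genes that most cells use, with the amyloid precursor protein App at -2.28 (SD 0.111), the mitochondrial dehydrogenase subunit Idh3a at -2.91 (SD 0.112) and Wsb2 at -2.44 (SD 0.080). Arhgap21 at -2.12 and Nudt3 at -2.18 lay just past the 4-fold bound. Without mice 19 and 24, App, Arhgap21 and Nudt3 no longer passed it, at -2.10, -1.94 and -2.03.

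**Figure D2:**
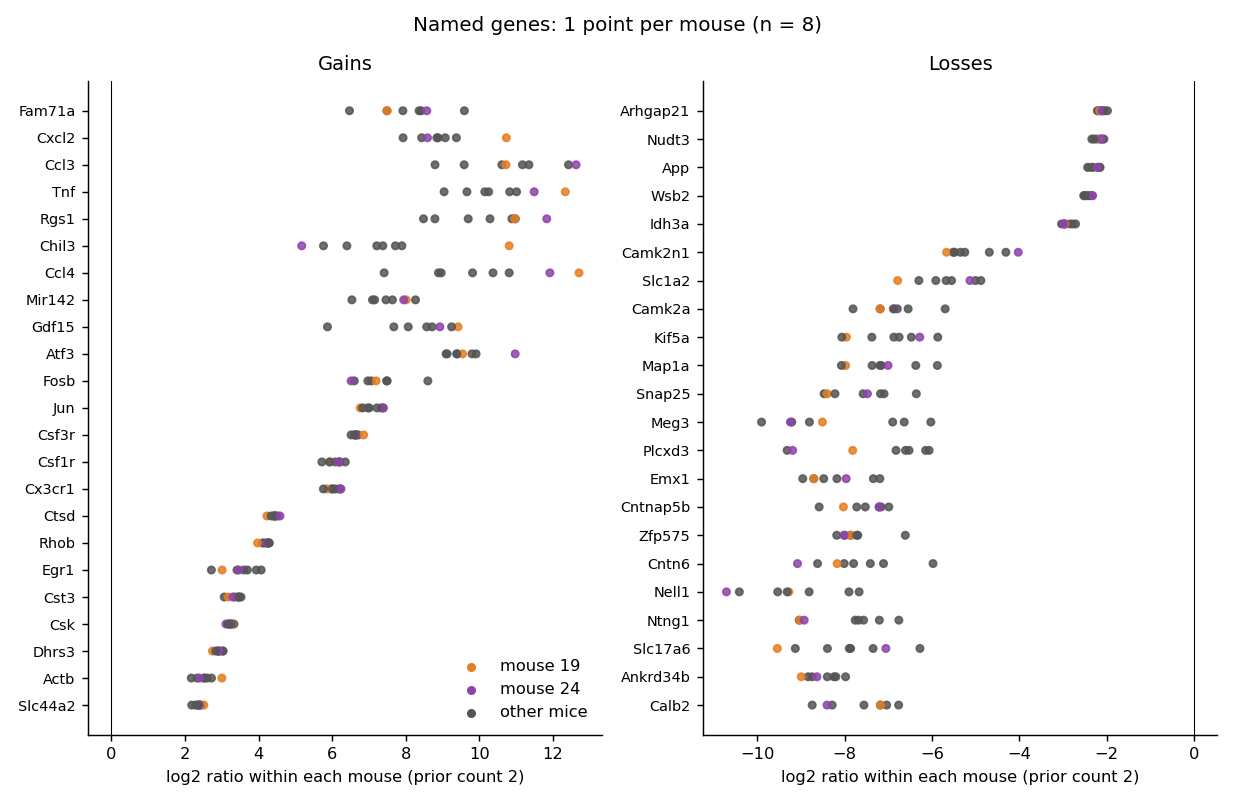
Log2 ratio of bound cells to homogenate within each mouse (horizontal, computed with a prior count of 2) for the gained genes (left) and lost genes (right) picked for a large change, a high level or a small spread, 1 point per mouse (n = 8), with mice 19 and 24 coloured. The points of Csk, Dhrs3 and Csf3r nearly coincide, those of Ccl4 and Meg3 spread widely, and mouse 19 stands apart for Chil3.

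Genes of immunoreceptor signalling were higher in bound cells. These receptors couple through adaptors with activation motifs (Tyrobp, Fcer1g) to the kinase Syk and are opposed by receptors and phosphatases that bind inhibitory motifs. Of 30 such genes 29 were gained and none was lost, with a median log2 fold change of 5.89. Tyrobp itself was at 359 CPM against 9.69 CPM in homogenate (means, n = 8; log2 5.29), its partner receptor Trem2 at 563 against 12.4 CPM (5.59) and Syk at 502 against 7.45 CPM (6.17). The opposing genes were gained too, the phosphatase Ptpn6 by 6.06, the lipid phosphatase Inpp5d by 5.94 and the sialic acid receptor Cd33 by 5.81. Gab3 was higher without passing 4-fold (2.10), and the smallest gain past it was of Sirpa, the receptor for the do-not-eat-me signal Cd47, which was already at 564 CPM in homogenate and reached 2527 CPM in bound cells (2.24).

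Receptors coupled to G proteins were split between 2 lists of 25, 1 assigned to microglia and 1 to neurons and astrocytes. Among those assigned to microglia 24 were gained and the remaining gene, S1pr2, was higher without passing 4-fold (1.72), and the list median was 6.05. The receptors for complement fragments C3ar1 (7.30) and C5ar1 (7.28), as well as the cannabinoid receptor Cnr2 (6.12) were among them. All 25 receptors assigned to neurons and astrocytes were lost, with a median of -7.10. The other cannabinoid receptor, Cnr1, fell from 212 CPM to 0.609 CPM (-8.36), the serotonin receptor Htr1a from 15.98 to 0.0217 CPM (-9.23), and the smallest loss was of the GABA-B subunit Gabbr1, from 782 to 123 CPM (-2.61).

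Ion channels and carriers were less uniform. Of 25 channels and carriers reported in microglia 17 were gained, with a median of 3.47. The largest were the peptide carrier Slc15a3 (7.54), the metal carrier Slc11a1 (6.33) and the proton channel Hvcn1 (6.27), and the ATP-gated channel P2rx7 gained 4.58. The potassium channel Kcnk13 was gained (2.94), and the potassium channel Kcna3 was lower, at 4.71 CPM in bound cells against 14.4 CPM in homogenate (-1.70). Voltage-gated sodium and calcium channel genes were lost in 26 of 28, with a median of -7.09. The exceptions were Cacnb2 (-1.60, lower without passing 4-fold) and Cacna1d, which encodes an L-type calcium channel and was higher in bound cells at 103 CPM against 71.5 CPM (0.59).

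Transcription factors were read in lists chosen by lineage, myeloid, neuronal and glial, so a split by lineage was likely from that choice. Of 30 factors of the myeloid lineage 25 were gained and 1 lost, with a median of 4.35. Spi1, which encodes the lineage factor PU.1, was at 334 CPM against 4.63 CPM (6.26), and Irf8 (6.35), Ikzf1 (6.33) and Runx1 (6.50) moved alike. Sall1, which keeps microglia in their resting state, was at 1001 CPM against 38.5 CPM (4.80). Mef2a was gained (2.17), Mef2d was slightly higher (0.41), and Mef2c, which neurons also express, did not differ by the test at 485 CPM against 626 CPM (-0.28, adjusted p = 0.0618 by edgeR). Bhlhe40 was the member lost, at 17.7 CPM against 156 CPM (-3.12), while its relative Bhlhe41 was higher (1.68). Of 29 neuronal factors 24 were lost, with a median of -6.26, among them the cortical layer genes Tbr1 (-7.45) and Bcl11b (-8.10). Emx1, a factor of cortical excitatory neurons, left 2 counts in all bound libraries against 7173 in homogenate, a 1896-fold difference with a counting interval of 525 to 15658. Of 20 glial factors 16 were lost, with a median of -3.89, and Hes1, a Notch target that macrophages also express, was gained (3.06).

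Genes of the leukocyte actin machinery were gained in 28 of 30, with a median of 5.78. They included Tagap (8.86), Rhoh (7.31), the kindlin Fermt3 (6.19) and the Wiskott-Aldrich protein Was (6.04). Of 33 lysosomal genes 24 were gained, with a median of 3.34. Laptm5 (5.78), the protease Ctss (5.76) and Cd68 (5.59) led, while the membrane protein Lamp1 (1.58) and the saposin precursor Psap (1.24) were higher without passing 4-fold. The acid alpha-glucosidase Gaa was the only one of the 33 that was lower (-0.62).

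Genes of the complement system moved both ways. Of 22 genes tested 11 were gained and 4 lost (2 within mice 15 to 19 and without mouse 25), with a median of 1.83. The subunits C1qa, C1qb and C1qc, which start the classical pathway, were at 2104, 2178 and 2060 CPM against 44.05, 45.01 and 41.6 CPM, with log2 fold changes of 5.66, 5.67 and 5.72. The receptor chains Itgam (5.90) and Itgb2 (6.06) and the central component C3 (6.71) were gained as well. The inhibitor Serping1 (-4.93), the regulator Cd59a (-4.87) the chaperone clusterin (Clu, -5.48) and the synaptic C1q relative C1ql3 (-7.64) were lost, and C4b did not pass the test (-0.11). Chemokines also divided: 15 of 21 were gained and 4 lost, with a median of 6.17. Those lost were Cx3cl1, the ligand of Cx3cr1 made by neurons (-7.34, from 887 to 6.10 CPM), Cxcl12 (-2.45), Cxcl14 (-5.51) and Ccl27a (-6.16).

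Among gained genes of at least 10 CPM in bound cells, those with the largest fold changes included several cytokine genes. Ccl3, a chemokine that draws monocytes, was at 279, 383 and 460.5 CPM (lowest, median, highest) in bound cells and at 0, 0.165 and 0.995 CPM in homogenate. The cytokine Tnf was at 209, 266 and 345 CPM against 0, 0.125 and 0.489 CPM. The difference was 10.87 (SE 0.55) on the log2 scale for Ccl3 and 10.86 (SE 0.45) for Tnf, and Ccl4, encoded 13229 bases away from Ccl3 on chromosome 11, gained 10.06 (SE 0.68). Cxcl2 (11.29, SE 0.55), the G protein regulator Rgs1 (10.24, SE 0.50) and the stress-induced growth factor Gdf15 (9.70, SE 0.73) were gained as well. Fam71a had 3806 counts in bound cells and 1 in homogenate, a 7200-fold difference with a counting interval of 1291 to 284450. It lies at 191162584 to 191164817 on chromosome 1 (GRCm38, minus strand), 5479 bases from the end of the stress factor gene Atf3 on the same strand, and Atf3 rose from 1.48 to 5.82 CPM in homogenate to 2401 to 3743 CPM (9.66, SE 0.27). Whether reads past the end of Atf3 were counted for Fam71a was not tested.

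Over a list of 36 genes known to respond within minutes to hours to tissue handling, warming and enzymes, 32 were gained and none was lost past 4-fold, with a median of 5.83. Their summed level was 45847 to 64843 CPM in bound cells and 2053 to 3281 CPM in homogenate. Jun was at 6327, 8232 and 9483 CPM (lowest, median, highest) against 52.8, 60.6 and 71.7 CPM (7.11, SE 0.12), and Fosb at 2945, 4302 and 5733 CPM against 11.9, 31.5 and 50.1 CPM (7.23, SE 0.27). Egr1 was at 3229, 3942 and 5270 CPM against 235, 384 and 679 CPM (3.49, SE 0.16). For these 3 genes the lowest bound library lay above the highest homogenate. Such separation was not counted over all genes, so it is not read as particular to them. By a different measure, 11068 of 14894 genes had the same direction in all 8 mice. The relatives of Egr1 differed in direction, since Egr2 was gained (3.20) and Egr3 was lower (-2.24), at 54.7 CPM against 283 CPM. The heat shock genes Hspa1a (5.84) and its near-identical copy Hspa1b (5.53), which share reads, were gained, and Hsp90aa1 did not pass the test at 589 CPM against 563 CPM. The part of the isolation in these differences was not tested, as no dissociated sample without enrichment is among the groups.

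Neuronal genes were reduced to traces. Of 30 genes of the neuronal cytoskeleton 27 were lost, with a median of -6.69. Kif5a, a motor for axonal transport, was at 18.6, 41.7 and 97.4 CPM (lowest, median, highest) in bound cells and 4712, 5005 and 6797 CPM in homogenate (-6.95, SE 0.32). Camk2a, the kinase of excitatory synapses, was at 27.2, 38.5 and 108 CPM against 3423, 5551 and 6203 CPM (-6.88, SE 0.25). The microtubule protein Map1a (-7.13, SE 0.30) and Snap25 (-7.60, SE 0.30) were lost by similar amounts, in 8 of 8 mice each. The neurofilament genes Nefl (-7.89), Nefm (-8.44) and Nefh (-9.34) were lost further than Dpysl2, which encodes a collapsin response mediator found in many cells and was lower without passing 4-fold (-0.89).

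For the largest losses the bound cells held 0 or 1 count in most cases, so the fold is set by counting. Calb2, the calretinin gene of a class of interneurons, had 0 counts in the 8 bound libraries and 5.44 to 22.2 CPM in homogenate, and was at least 886-fold lower, taking 3 counts over the 8 libraries as the floor. By the same floor Agt, the angiotensinogen made by astrocytes, was at least 588-fold lower, and Acan, the aggrecan core protein of perineuronal nets, at least 428-fold. Ankrd34b had 1 count against 8538, a 4513-fold difference with a counting interval of 810 to 178291. Slc17a6, which loads glutamate into vesicles mainly in subcortical neurons, had 1 count against 6864 (3629-fold, 651 to 143339), and the netrin relative Ntng1 had 1 against 6990 (3695-fold, 663 to 145969). Slc17a6 varied in homogenate from 6.05 to 37.8 CPM. Zfp575, with 1 count against 4974, overlaps Ethe1 on the opposite strand, and how the counting treated strand is not given in the sources used here.

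Imprinted genes, which are expressed from 1 parental allele and are abundant in neurons, were mostly lost: 19 of 27 tested, none gained, with a median of -5.90, and 12 were lost within mice 21, 24 and 25. The maternally expressed noncoding RNA Meg3 was at 2.94, 6.996 and 51.8 CPM (lowest, median, highest) in bound cells against 2114, 2930 and 3461 CPM (-8.15, SE 0.59), and its neighbours Rian (-7.81) and Mirg (3 counts against 5024) were lost with it. Paternally expressed Peg3 (-7.28) and Ndn (-7.15) were lost, whereas Sgce (1.95) and Peg10 (1.82), which adjoin each other on the genome, were both higher without passing 4-fold. Noncoding RNAs outside this class did not move together. Malat1 was higher, at 3463 CPM against 1952 CPM (0.89), Neat1 did not pass the test (0.44), the snoRNA host Snhg1 was gained (3.03), and Snhg11 (-8.41) and Miat (-7.39) were lost.

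Matrix genes were lost in 23 of 30 tested, with a median of -4.19, and in 15 within mice 15 to 19. The proteoglycan neurocan (Ncan, -6.19), the link protein Hapln4 (-7.93) and tenascin R (Tnr, -6.58), all of perineuronal nets, were lost together with the collagens Col1a2 (-4.85) and Col3a1 (-4.28). The 2 exceptions past 4-fold were Sparc, a collagen-binding protein, at 2639 CPM against 182 CPM (3.98), and the basement membrane protein nidogen 2, Nid2, at 62.3 CPM against 7.33 CPM (3.22). Mouse orthologs of genes near human Alzheimer risk loci split as well, 12 of 27 gained and 4 lost with a median of 1.995. Cass4 (7.24), Abi3 (6.01), Rin3 (4.66) and Picalm (3.21) were gained, while Slc24a4 (-7.39) and Fermt2 (-3.85) were lost. Apoe was lower in bound cells at 954 CPM against 1739 CPM (-0.79), and Bin1 higher at 880 CPM against 231 CPM (1.995), neither past 4-fold.

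Cell types were depleted to unequal extents. For 12 excitatory neuron markers the geometric mean level in bound cells was 0.212% to 1.10% of that in homogenate of the same mouse, and for 12 inhibitory neuron markers 0.104% to 0.730%. All 24 were lost, with list medians of -7.56 and -8.10. Oligodendrocyte precursors were left at 0.378% to 3.14% (10 of 10 markers lost) and astrocytes at 1.52% to 5.48% (13 of 14 lost). The highest mouse was mouse 15 for both neuron lists, with summed excitatory markers of 36.3 to 183 CPM over the 8 bound libraries. Mature oligodendrocytes stood higher, at 5.66% to 33.8%, with 10 of 14 markers lost and all 14 lower. Only 2 of the 14 were lost without mice 19 and 24, and 3 within mice 15 to 19. Myelin basic protein (Mbp) was at 91.9 CPM against 1639 CPM (-3.88), and Cnp, which also belongs to myelin, at 86.8 CPM against 236 CPM (-1.22).

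Vessel markers were lowered to differing extents. Endothelial markers remained at 15.3% to 68.7% by mouse, none of the 15 was lost past 4-fold, and 14 were lower with a list median of -1.52. The exception was Pecam1, which myeloid cells also carry and which was higher (0.55), though it no longer passed without any 1 of mice 15, 17, 18, 21 and 24, where it was 0.42 to 0.55. The endothelial tight junction gene Cldn5 was at 20.2 CPM against 83.9 CPM (-2.10). Mural cell markers remained at 6.87% to 45.7% with 4 of 12 lost, a count that was 1 without mouse 19, without the mouse as a block and within mice 21, 24 and 25, and 2 within mice 15 to 19 and without mouse 25, and the contractile genes Acta2 (-0.29) and Myh11 (-0.22) did not pass the test. All 12 fibroblast markers were lost, with a median of -4.99, though 6 were within mice 15 to 19 and 9 without mouse 25.

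Markers of other CD11b-bearing and blood cells were mostly higher in bound cells for border macrophages, neutrophils and dendritic cells, and mixed for monocytes, B cells and mast cells. Of 15 border macrophage markers 14 were gained with a median of 4.73, and 9 within mice 21, 24 and 25. Stab1 was at 1808 CPM against 52.2 CPM (5.34), Mrc1 at 232 CPM against 11.2 CPM (4.96), and F13a1 at 122 against 5.02 CPM (5.07). By mouse their geometric mean was 481% to 4793% of that in homogenate, lowest in mouse 25, whose homogenate had a summed level of 291 CPM against 55.6 to 117 in the other 7, while its bound cells were at 2752 CPM within a range of 1873 to 3065. Without mouse 25, 14 were gained with a median of 5.14. Stab1 alone made up most of the summed level in bound cells, and which of the bound cells carried it was not tested. All 10 neutrophil markers tested were gained with a median of 7.78, and without mouse 19 all 8 that could be tested were. Outside mouse 19 their summed level was 48.1 to 344 CPM in bound cells, against 1.62 to 5.16 CPM in homogenates. With homogenate levels this low, markers passed the filter on low counts mainly through bound cells, which left little room for a loss. Elane and Mpo were under the filter, with 9231 and 27747 counts in bound cells against 9 and 52. Monocyte markers were gained in 4 of 9 (median 1.69), and in 1 within mice 21, 24 and 25. Without mouse 19, of 8 tested 3 were gained and 3 were called lower, 1 of these past 4-fold, with a median of 0.67. Chil3 (10.10, SE 0.57) ran from 2.69 CPM to 868 CPM, the highest in mouse 19, with 7.81 CPM as the median. Cell cycle genes were gained in 3 of 27 and lost in 3, with a median of 0.97. Without the mouse as a block the gains were 7, 21 genes were called higher in place of 12, and the median was 2.25. The gains were 5 without mouse 24 and 6 without mice 19 and 24, and within mice 15 to 19 the losses were 1. In mouse 19 they summed to 2028 CPM, against 414 to 560 CPM in the other 7 bound libraries. Dendritic cell and class II genes such as Cd74, at 232 CPM against 11.3 CPM (5.18), were gained in 6 of 8. The other 2 were called lower without passing 4-fold, the lowest being Flt3 (-1.90), and Xcr1 and Clec9a were under the filter on low counts. Of 4 T and NK cell markers tested 3 were gained (median 4.57), Il7r at 21.6 CPM (5.88), Cd4 at 6.85 CPM (3.26) and Ccl5 at 2.68 CPM (8.36), and Lck did not pass the test, while Cd3d, Cd3e, Cd3g and Cd8a were under the filter on low counts. Of 4 B cell markers Cd22 at 15.9 CPM (5.604) and Cd79b at 8.96 CPM (5.70) were gained, Ebf1 was lower (-1.62) and Cd79a did not pass. In homogenates the T and NK cell list summed to 1.55 to 4.15 CPM and the B cell list to 5.15 to 17.6 CPM. At such low levels, as for neutrophil markers, the filter left little room for a loss among the markers gained. Of 2 mast cell markers Hdc was gained (4.77) and Kit lost (-4.91). The part of these cells in any other gain was not tested.

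**Figure D3:**
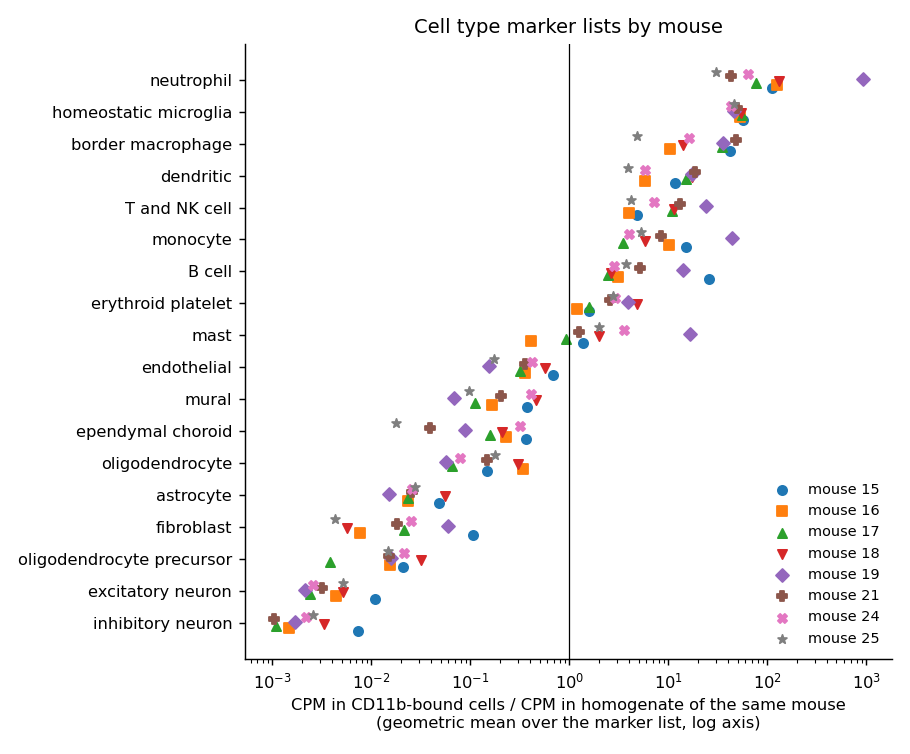
Level of each cell type marker list in bound cells divided by that in homogenate of the same mouse (horizontal, log axis, geometric mean over the list), 1 symbol per mouse (n = 8), with lists ordered by their median. Neuron lists lie lowest at ratios of 0.00104 to 0.0110, endothelial and mural lists between 0.0687 and 0.687, resting microglia within 43.0 to 57.3, and mouse 19 stands apart for neutrophil, monocyte and mast cell lists.

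Within protein families, some members were gained while others were lost. Over 24 families with 118 tested members, 34 members were gained and 37 lost, and 10 families held both a gain and a loss. Hexokinases, which start glycolysis, included Hk1, which was lost (-2.78, from 458 to 65.0 CPM), and Hk2 (5.91) and Hk3 (6.36), which were gained. Among hexose carriers the fructose carrier Slc2a5 was gained (6.11), the neuronal glucose carrier Slc2a3 lost (-3.13), and Slc2a1 did not pass the test (-0.21). The phosphoinositide 3-kinase subunits Pik3cg (6.01) and Pik3cd (3.46), typical of leukocytes, were gained, the widely expressed Pik3cb was higher (1.31), and Pik3ca did not pass the test (0.14). Of phospholipases C, Plcg2 (5.48) and Plcb2 (5.71) were gained and Plcb1 (-5.92) and Plcb4 (-4.20) lost. Of protein kinases C, Prkcd was gained (5.64) and Prkce was lost (-3.37). Of G protein alpha subunits, Gna15 (6.45) was gained while Gnao1 (-5.32), the main brain form, and Gnal (-7.33) were lost.

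The same held for proteins of the cytoskeleton and adhesion. Dock2 (6.14) and Dock8 (6.19), exchange factors of leukocyte migration, were gained and Dock3 of neurons was lost (-7.37). The leukocyte GTPase Rac2 was gained (5.82), whereas Rac1 was slightly higher (0.68) and Rac3 lower (-1.15). Of the plastins, which bundle actin, Lcp1 was gained (5.85) and Pls3 lost (-2.61). The Arp2/3 subunit Arpc1b was gained (4.17) and its partner form Arpc1a was lower (-1.12). Integrin Itgb2 (6.06) and Itgb5 (4.89, at 2204 CPM) were gained, and Itgb8, by which other brain cells activate TGF-beta, was lost (-5.98). Of tubulins Tubb6 was gained (4.79) and Tubb3 of neurons lost (-6.80), with Tubb5 at 343 CPM against 423 CPM not passing the test. All 12 tested synaptotagmins, a family of vesicle membrane proteins, were lost, from -3.11 for Syt3 to -9.20 for Syt2. In the eicosanoid pathway Alox5 (6.03), Hpgds (5.92) and Ptgs1 (4.72) were gained, while the inducible cyclooxygenase Ptgs2 was at 22.7 CPM against 17.8 CPM and did not pass the test (0.25).

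**Figure D4:**
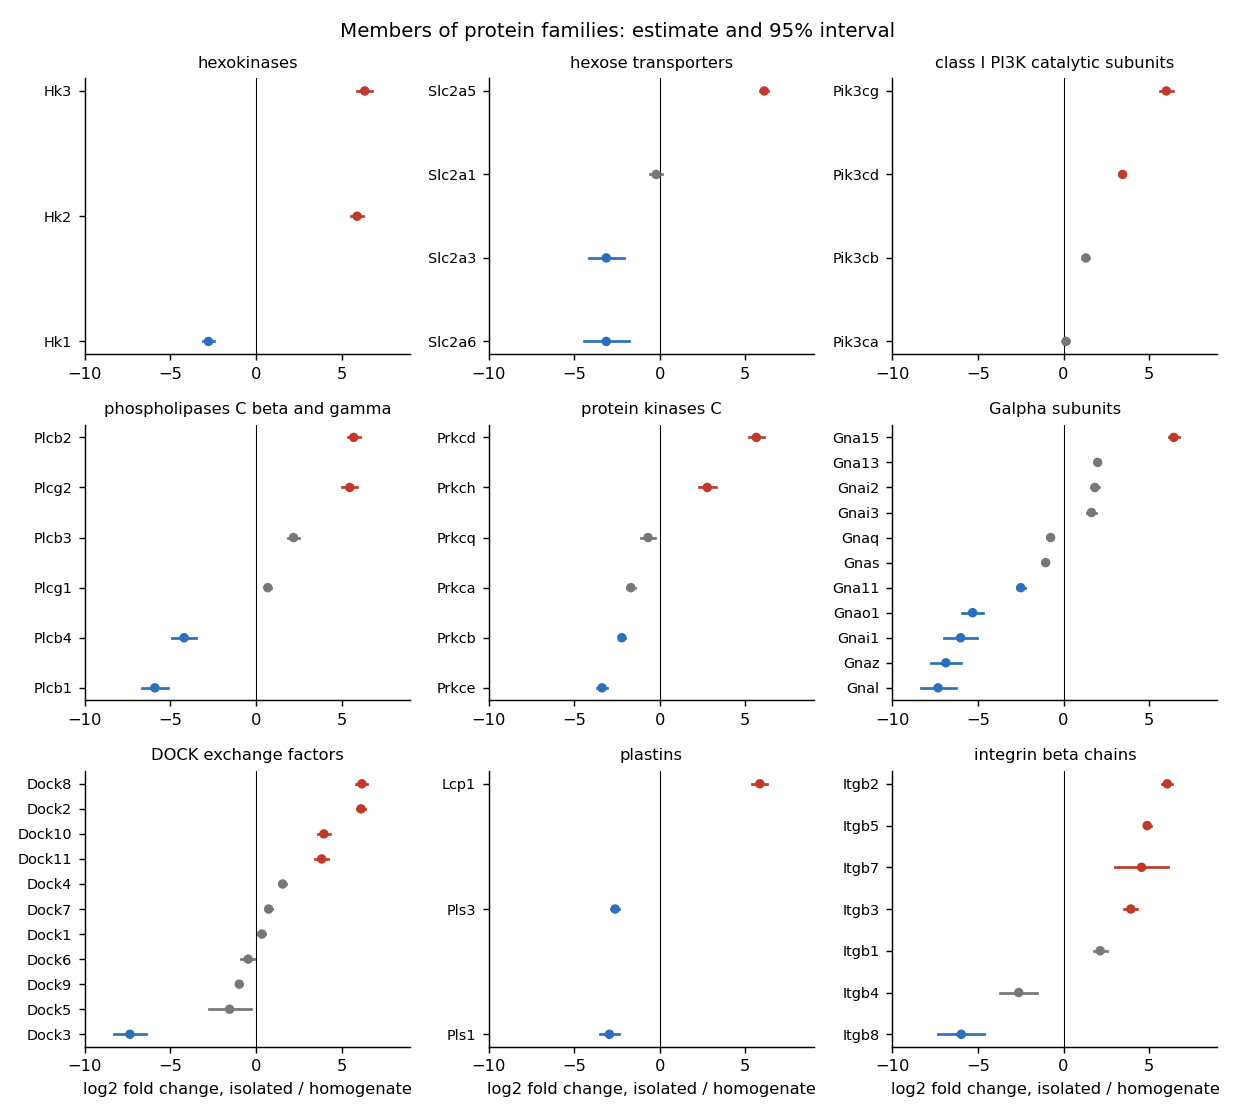
Log2 fold change of bound cells against homogenate (horizontal) for tested members of 9 protein families, as the edgeR estimate with its 95% interval (n = 8 pairs), red where gained past 4-fold, blue where lost past 4-fold and grey otherwise. In each panel members lie on both sides of 0 or reach it, for example Hk3 at 6.36 and Hk1 at -2.78.

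Some primary microRNA transcripts were among the gains. The counts are poly(A) reads over the locus, not mature microRNA. Of 957 loci in the files with a RefSeq entry, 49 had enough counts, of which 9 were gained and 5 lost. The gained loci held few counts in homogenate, from 4 for Mir142 to 62 for Mir7-1, and passed the filter on low counts through bound cells. The lost loci held 0 to 18 counts in bound cells and passed it through homogenate. The filter thus left little room for the opposite direction on either side. Mir142, a locus of blood-forming cells, was at 7.14, 9.94 and 15.5 CPM (lowest, median, highest) in bound cells and at most 0.0527 CPM in homogenate (9.84, SE 0.70). It lies at 87756864 to 87756927 on the plus strand of chromosome 11 and overlaps Mir142b on the other strand. The 3 loci of the Mir23a cluster on chromosome 8, which lie between 84208518 and 84208921 (plus strand), were all gained: Mir23a at 7.49 CPM against 0.0895 CPM (6.75), Mir27a at 6.99 against 0.0120 CPM (8.9985) and Mir24-2 at 10.2 against 0.0850 CPM (7.23). The mature forms follow from RefSeq (GRCm38.p6), 5′ to 3′ with the seed, bases 2 to 8, in capitals, since these 4 loci had the largest fold changes of the 9, and the products shown share no seed.
mmu-miR-142a-3p: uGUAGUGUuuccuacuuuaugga
mmu-miR-142a-5p: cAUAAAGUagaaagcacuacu
mmu-miR-23a-3p: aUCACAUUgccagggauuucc
mmu-miR-27a-3p: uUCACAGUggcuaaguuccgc
mmu-miR-24-3p: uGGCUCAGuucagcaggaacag

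The 5 lost loci were Mir9-2, Mir212, Mir6390, Mir1188 and Mir3072. Mir9-2 had 2 counts in bound cells against 421 (111-fold, counting interval 30.6 to 922). Mir6390 was at 0.0776 CPM against 0.976 CPM (-4.86). Mir212 was at 0.0698 CPM against 1.12 CPM (-5.31), and its neighbour Mir132, 0.972 CPM in homogenate, was lower at 0.181 CPM without passing 4-fold (-3.15). These levels are low, and their calls rest on few counts. These loci passed the filter through homogenate, which left little room for a gain. Mir1188 and Mir3072, both on the stretch of chromosome 12 that holds Meg3, had 0 counts in bound cells and 0.574 to 1.71 CPM in homogenate. Sequences of 3 products are given in the same way, because the main products of Mir212 and Mir132 share their seed.
mmu-miR-212-3p: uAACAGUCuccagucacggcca
mmu-miR-132-3p: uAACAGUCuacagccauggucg
mmu-miR-9-5p: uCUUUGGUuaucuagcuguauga

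The promoters of gained genes were searched for 11 short motifs, from 250 bases before to 50 after the start, in the RefSeq promoter table (GRCm38.p6), on both strands. Of the tested genes, 11086 (74.4%) had an entry, among them 1170 gained and 2641 lost. The 8 bases GAGGAAGT, the core that PU.1 prefers, occurred in 108 gained genes (9.23%), in 56 lost genes (2.12%) and in 3.54% of all tested genes with an entry. Its inner part GAGGAA occurred in 40.8%, 30.8% and 30.6%. The core of other ETS factors, CCGGAAGT, which overlaps the former in its last 6 bases, occurred in 3.504% of gained, 1.86% of lost and 8.08% of all genes. TGACTCA, bound by AP-1, occurred in 6.58%, 5.49% and 4.51%, and TGACGTCA, bound by CREB, in 1.62%, 2.69% and 3.45%. The left part of the site of the neuronal repressor REST, TTCAGCACC, and the right part occurred in 0.342% and 0.0855% of gained and in 1.21% and 0.454% of lost genes, against 0.559% and 0.280% of all. TATAAA occurred in 13.2%, 9.996% and 8.89%. The rest were rare: GGAACTTCC in 0.769%, 0.379% and 0.776%, the NF-kappaB site in 0.684%, 0.151% and 0.235%, and the interferon-stimulated response element in 0.427%, 0.0379% and 0.108%. A match of letters does not show that a factor binds there.

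These 3 windows show where the PU.1 core lies in genes described above, with the match in capitals (ACTTCCTC is the core read on the other strand). Each is 300 bases, 5′ to 3′ on the strand of the gene, in GRCm38.p6. Ctss spans chr3:95526536-95526835 on the plus strand with the match at the start site, Inpp5d spans chr1:87620062-87620361 on the plus strand with the match 20 bases before the start, and C1qc spans chr4:136892865-136893164 on the minus strand with the match 195 bases before the start.
Ctss: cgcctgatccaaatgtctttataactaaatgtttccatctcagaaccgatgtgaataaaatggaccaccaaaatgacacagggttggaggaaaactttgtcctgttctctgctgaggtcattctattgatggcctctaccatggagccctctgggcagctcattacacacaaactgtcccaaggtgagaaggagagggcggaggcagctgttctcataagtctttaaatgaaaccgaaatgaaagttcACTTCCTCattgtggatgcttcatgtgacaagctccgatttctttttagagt
Inpp5d: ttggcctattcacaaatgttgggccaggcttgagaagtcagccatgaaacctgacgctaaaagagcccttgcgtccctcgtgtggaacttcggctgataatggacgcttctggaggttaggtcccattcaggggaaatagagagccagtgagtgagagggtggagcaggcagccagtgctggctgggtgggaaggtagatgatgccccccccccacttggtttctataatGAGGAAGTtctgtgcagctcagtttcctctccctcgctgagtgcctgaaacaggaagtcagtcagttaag
C1qc: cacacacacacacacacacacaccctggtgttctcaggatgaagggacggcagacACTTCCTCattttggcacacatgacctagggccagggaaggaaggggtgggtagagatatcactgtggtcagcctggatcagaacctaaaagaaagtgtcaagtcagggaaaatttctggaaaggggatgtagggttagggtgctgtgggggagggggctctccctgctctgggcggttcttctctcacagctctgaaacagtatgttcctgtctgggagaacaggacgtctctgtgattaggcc

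Lost genes were longer on the genome than gained genes. The median span from start to end, introns included, was 34.9 kb over lost genes, 20.9 kb over gained genes and 24.8 kb over all tested genes with a position. Genes were put into 5 bins of like size by span. In the bin with the longest spans, 78.0 to 2961 kb, 42.0% were lost and 7.48% gained. In the other 4 bins 19.4% to 23.0% were lost and 10.5% to 11.98% gained. By class, 72 of 148 long intergenic noncoding RNAs were lost (48.6%) and 10 gained, against 24.9% lost of 14138 protein-coding genes. Small nucleolar RNAs, which arise mostly from introns, went the other way, with 13 of 40 gained and 1 lost.

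**Figure D5:**
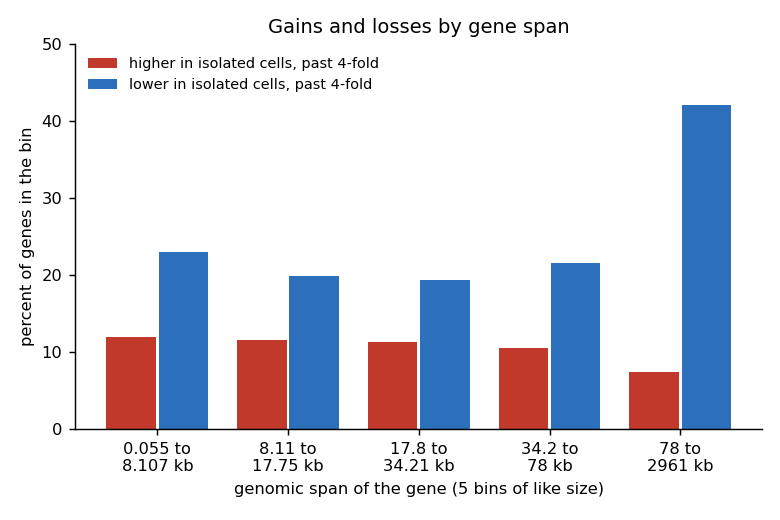
Percent of tested genes gained (red) and lost (blue) past 4-fold in 5 bins of genomic span (horizontal, in kb), with bars starting at 0. The blue bar of the longest bin reaches 42.0%, against 19.4% to 23.0% in the others, while red bars fall from 11.98% to 7.48%.

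Few genes stood at like levels. In 194 genes (1.30%) the 95% interval of the log2 fold change lay within 0.25 of 0. The most abundant were the ubiquitin ligase Huwe1 at 427 to 632 CPM in bound cells and 521 to 650 CPM in homogenate (-0.08, SE 0.05), the histone-associated protein gene Ptms (-0.12, SE 0.05), the chloride channel Ttyh3 (0.10, SE 0.05), Fam168b (-0.07, SE 0.06) and the cyclin Ccni (-0.04, SE 0.07). The ranges of both preparations overlapped for each of them. Without mice 19 and 24, where the median of all genes was -0.29 in place of -0.44, Huwe1, Ptms, Fam168b and Ccni turned to 0.11, 0.06, 0.11 and 0.07.

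The comparison was repeated in the 10 ethanol mice with both preparations, which share no animal with the water mice. There 12345 of 14637 genes (84.3%) differed and 5317 (36.3%) passed 4-fold. Of the 5339 genes past 4-fold in water mice, 4852 passed in the same direction in ethanol mice, which is 90.9% of the water list and 91.3% of the ethanol list, and none passed in the opposite direction. Csf1r gained 6.17 there, Jun 7.17 and Tnf 11.78, and Snap25 lost 7.13 (-7.13 on the log2 scale). Whether the difference between preparations itself differed between water and ethanol mice was tested as an interaction with the mouse as a block, and 0 of 15749 genes (0%) passed by edgeR, with 1132 at an unadjusted p under 0.05 and a smallest adjusted p of 0.159. Without the block 26 genes passed, 14 with a larger ratio of bound cells to homogenate in ethanol mice and 12 with a smaller one.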

How the data were processed

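Poly(A) RNA of CD11b-bound cells and of homogenate was sequenced as paired 75-base reads from a directional library kit, per the labels' protocols. The deposited values are whole-number counts per gene symbol, 1 file per library, each with 5 tally rows at its end. The build was mm10, and the tools named are STAR and HTSeq, besides bcl2fastq 2.15.0.4, FastQC and DESeq2, per the submitters' processing notes. The annotation and the strand setting of the counting are not stated there, so overlapping, antisense and duplicated genes are uncertain. Tally rows stayed out of library sizes and tests. They made up 27.7% to 66.4% of the records in bound cells and 29.1% to 34.8% in homogenate. Both preparations with 1 number came from 1 mouse by the protocol, so the mouse was a block in the design. The labels do not say how libraries were batched. After the group means were taken off, same-numbered libraries correlated across genes with a median of 0.0313 (-0.0270 to 0.112), and 3 of 8 correlated best with their own number. Libraries of 1 group all differed by more than counting noise (lowest chi-square per degree of freedom 24.9).

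Differences were tested with edgeR 4.0.16 in R 4.3.3 (quasi-likelihood F-test, TMM, filterByExpr, Benjamini-Hochberg over 14894 genes at 0.05). Gains and losses past 4-fold come from glmTreat on the same fit. SE was taken from the F statistic. Every adjusted p is from edgeR. CPM are deposited counts scaled to the library total in genes, and TPM use GENCODE M21 exon lengths (GRCm38, 14773 of 14894 genes matched). Counting intervals and floors (3 counts over a group) cover counting error only, as no molecular identifiers are named. In counts simulated from these libraries (14415 genes), 82% of genes with a true log2 of 3 and 89.8% of those with -3 were called, and 66% and 71.4% of the same genes passed 4-fold. With a true log2 of 1 and -1, 62% and 52% were called, and 0.0422% of unchanged genes were. In this simulation 14216 genes were unchanged, and the few changed genes went up and down in about equal numbers. The real preparations differed at most genes, with more losses than gains. The simulated rates therefore do not show how the tests behave under so wide and uneven a difference.

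Genes were named by a rule: among genes past 4-fold with at least 10 CPM in the higher preparation, the 10 largest and 10 most abundant gains and losses and the 5 steadiest of each, up to 4 members of each list or family at its ends, the 5 most abundant genes at like levels, and the markers. Other list members were named for their role after their values were seen. Members, lists, motifs and tests were chosen with earlier results of these data known, so counts over lists are descriptions. Of 799 listed symbols 735 were tested. Alternatives were other scalings and filters, DESeq2 1.42.0, no block, left-out mice and other fold limits. Some genes that the rule names are not reported here.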

Additional observations from a re-analysis of the deposited data

Results flagged for a closer look

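Of 104 values by mouse that were screened, 9 had 1 mouse far from the other 7, and chance gives about 1 in 20. Among named genes, the log2 ratio of Atf3 was 10.975 in mouse 24 against 9.10 to 9.91 in the others, and that of Fosb was 8.6015 in mouse 18 against 6.51 to 7.50. The log2 ratio of Ptms was 0.047 in mouse 16 against -0.200 to -0.0890, and that of Zfp575 was -6.61 in mouse 15 against -8.18 to -7.70. Among lists, the mean log2 ratio of cell cycle genes was 4.38 in mouse 19 against -0.639 to 1.30, and that of neutrophil markers was 9.86 in mouse 19 against 4.94 to 7.05. For oligodendrocyte precursor markers it was -8.05 in mouse 17 against -6.10 to -4.99. Among library measures of bound cells, mouse 24 had 56.1% of uniquely aligned reads outside genes, against 19.9% to 27.1%. It also had 38.7% of counts in the 100 most abundant genes, against 22.3% to 25.7%. What set these mice apart was not tested.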

How the results depend on the processing

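Under the alternatives run on all 8 pairs (scaling, filter, DESeq2, no block), 11596 to 13018 genes were called and 4784 to 5596 passed 4-fold, the lowest with a stricter filter on low counts. No gene past 4-fold in both the main fit and an alternative turned its sign, which the shared libraries nearly ensured. Without the mouse as a block 12472 genes were called and 5171 passed 4-fold (12712 and 5321 with the unpaired homogenate of mouse 26 added), and in ethanol mice 12367 and 5001. Leaving out 1 mouse gave 12040 to 12259 called and 5160 to 5242 past 4-fold. Without mice 19 and 24 these were 11941 and 4993, and in mice 16 to 19 10386 and 4179. A 2-fold limit gave 8182 genes, 2865 of them gained, and an 8-fold limit 3887, with 996 gained. The interaction with ethanol called 26 genes without the block and 0 without water mice 19 and 24. With the median in place of the geometric mean over a list, the level in bound cells as a percent of homogenate moved to 318% for Alzheimer orthologs, 3699% for dendritic cell markers, 5339% for chemokines, 419% for complement, 5063% for leukocyte actin genes, 2202% for myeloid factors and 102% for noncoding RNAs. These named genes, none of them called in the main test except Ptms, turned their sign. Leaving out 1 mouse gave log2 values for Acta2 -0.69 to 0.15, Myh11 -0.57 to 0.21, Etv1 -0.14 to 0.041, Slc4a1 -0.69 to 1.15, Ptgs2 -0.057 to 0.53 and Lck -0.11 to 0.60. Without mice 19 and 24, Etv1 was at 0.17, Nfia at 0.13, Fam168b and Huwe1 at 0.11, Ccni at 0.073, Ptms at 0.056 and Slc4a1 at -0.79. In mice 15 to 19, Acta2 was at 0.11 and Slc4a1 at -0.63. In mice 21, 24 and 25, Ccni was at 0.085, Etv1 at 0.011, Ptgs2 at -0.19 and Cd79a at -0.11. In mice 16 to 19 Cux1 was at -0.042, and by DESeq2 Slc4a1 was at -0.029. The cause of these shifts was not tested. In 190 lost genes bound cells had no counts, so their fold is only a lower bound at this depth.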
